A study of Mus musculus with 16 samples.

Results

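Brown and white preadipocytes that had received the control treatment were compared by RNA sequencing. Preadipocytes are the fibroblast-like cells, found in the stromal-vascular part of fat, from which fat cells form. The comparison took the 4 libraries labelled as control from interscapular brown fat and the 4 labelled as control from inguinal white fat, so 8 of the 16 libraries of the series. The remaining 8 libraries, 4 from each depot, had received Fgf8b, a secreted fibroblast growth factor, and were used for 1 further question at the end. All cultures were primary cells of C57BL/6N mice that carry a Ucp1 reporter, the controls included. The sources used here give neither the age and sex of the mice nor the control agent and the length of treatment. The labels' design text speaks of 3 cultures while each group has 4 libraries, and the labels do not say which of them come from 1 culture.

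Interscapular brown fat lies between the shoulder blades and burns fuel for heat through the uncoupling protein Ucp1, while inguinal white fat lies under the skin at the hind limb and stores lipid. Brown fat cells of the trunk descend largely from the dermomyotome, the part of the embryonic somite that also forms dorsal dermis and back muscle. Cells taken into culture can keep the expression of Hox and other patterning genes that records where along the body they came from. The comparison therefore asked which transcripts set the precursor cells of both depots apart without added Fgf8b.

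White control libraries held 15.6 to 19.8 M reads and brown control libraries 13.7 to 16.1 M reads, as recovered from the values. Levels are RPKM (reads per kilobase of transcript and per M reads) of a representative RefSeq transcript. Values of single libraries are given in the order of their numbers, which were 1, 3, 5 and 7 in white and 9, 11, 13 and 15 in brown. Differences are brown minus white in log2(summed RPKM + 0.5), where a gene's transcripts were summed and 0.5 was the offset, with the standard error (SE) of the fit. The offset makes the difference of low genes too small, and summing weighs it less in genes with many transcripts. A gene was called when its limma p, adjusted by the Benjamini-Hochberg method, was under 0.05. The library brown control 15 stood apart: in a chi-square test of recovered reads, its pairs with the other brown controls gave 8.10 to 8.88 for each degree of freedom, while all other pairs within a group gave 1.44 to 2.76. Its deviation from the other brown controls had a Spearman correlation of -0.56 with GC content across 13807 genes. The depot difference had one of -0.12 with GC content, and 0.03 without that library. Depot runs with library number, white from 1 to 8 and brown from 9 to 16, so the depots and any order of handling cannot be told apart. Of 299 accessions listed more than once, 145 had unequal values in white and 0 in brown libraries, and 15 entries were at 0 in every library of one depot but at 2 RPKM or more in the other. The part of such differences in table making in the results was not tested.

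The labels call the cells preadipocytes in one place and adipocytes in another. Precursor markers were abundant in both depots. Pdgfra, a growth factor receptor of mesenchymal precursors, averaged 94.3 RPKM ± 1.41 in white and 67.5 RPKM ± 2.63 in brown libraries (SD, n = 4 each). Ly6a, the surface antigen Sca1, averaged 941 ± 50.4 and 573 ± 37.6 RPKM, and Thy1, a fibroblast surface protein, 269 ± 13.2 and 294 ± 7.33 RPKM. Of 3 genes of mature fat cells, chosen after their values were seen, the hormone adiponectin (Adipoq) reached at most 0.118 RPKM, the lipid droplet protein Plin1 at most 0.0335 RPKM, and leptin (Lep) was listed at 0 in all 8 libraries.

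The depots differed at many genes, mostly by little. Of 15222 genes tested, 5167 were called (33.9%), with 2748 higher in brown (18.1%) and 2419 higher in white (15.9%). These shares higher in brown and in white are repeated beside list counts below, marked as all genes. The median difference of all genes was 0.00. Of the called genes, 73.7% differed by less than 1.5-fold. At least 2-fold differences numbered 511 (3.36%), of which 312 were higher in brown (2.05%) and 199 higher in white (1.31%), and at least 4-fold differences numbered 48 and 31. Fewer genes were called by voom on read-back reads (3006 of 8396 tested, 312 of them at least 2-fold), and with RefSeq transcripts alone 267 of 13047 were called at least 2-fold. Of the 511 genes, 253 were tested by voom and 392 with RefSeq transcripts alone. Calls in the same direction, at any size, numbered 250 and 391 of them. The control libraries of the depots did not overlap at 4291 called genes (28.2% of genes tested). This holds for most called genes, so lack of overlap at a gene named for its large difference adds little to its call. Since these were bulk samples, a difference in the RNA per cell and a difference in the share of cells of a type cannot be told apart. The p-values measure the spread between these libraries, part of which may be technical. Which libraries share a culture is not known, so the p-values do not measure a known spread between cultures or mice.

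Hox genes separated the depots by their place in the cluster. These transcription factors fix identity along the body, and genes with higher paralog numbers mark more posterior levels and the distal limb. Of 39 Hox genes, 32 passed the filter on low values (at least 0.5 RPKM in at least 4 libraries). Of these, 16 were higher in brown and 9 higher in white (all genes 18.1% and 15.9%), with a median difference of 0.39. Among paralogs 1 to 8, 14 of 21 tested genes were higher in brown and 1, Hoxc8, higher in white. Among paralogs 9 to 13, 8 of 11 were higher in white and 2, Hoxb9 and Hoxd9, higher in brown. All 8 of the posterior genes higher in white lie in the Hoxa and Hoxc clusters.

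Hoxc10, the most abundant Hox gene of the white libraries, measured 46.6, 46.1, 44.0 and 46.2 RPKM in white and 2.59, 2.71, 2.23 and 3.16 RPKM in brown controls. Every white library lay far above every brown one. The difference was -4.03 (SE 0.083, adjusted p = 1.39e-16). Hoxa10 measured 17.0, 17.1, 17.0 and 15.5 RPKM in white and 0.606, 0.352, 0.522 and 0.720 RPKM in brown libraries, a difference of -4.81 (SE 0.15). Hoxa9 differed by -3.77 (SE 0.14), Hoxc11 by -3.36 (SE 0.15), Hoxc12 by -2.37 (SE 0.15), Hoxc13 by -1.74 (SE 0.12) and Hoxc9 by -1.58 (SE 0.061). Hoxa11 averaged 2.26 RPKM ± 0.318 in white and 0.0441 RPKM ± 0.0372 in brown libraries. Its antisense transcript Hoxa11os had 55 to 77 reads per white and 1 to 2 per brown library. Strandedness of the libraries was not given in any label, so reads of such overlapping partners cannot be told apart. The long noncoding RNA Hotair, which lies between Hoxc12 and Hoxc11, had 16 to 22 reads per white and 2 to 5 per brown library.

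At the anterior end Hoxa2, which patterns hindbrain and neck structures, measured 0.494, 0.451, 0.449 and 0.328 RPKM in white and 4.63, 4.97, 5.22 and 4.96 RPKM in brown libraries. The difference of 3.22 (SE 0.099, adjusted p = 2.19e-14) had the largest size among Hox genes higher in brown. Its neighbours followed with 1.68 for Hoxa3, 1.26 for Hoxa4 and 1.44 for Hoxa5, while Hoxa6 was not called (0.11, SE 0.11). Hoxc4 and Hoxc5 differed by 1.15 and 1.27, Hoxc6 was not called (0.06, SE 0.056), and from Hoxc8 (-0.39, SE 0.063) onward the sign was negative. The change of sign thus fell between paralogs 7 and 9 in Hoxa and between paralogs 6 and 8 in Hoxc. In Hoxb the differences were modest, from 0.30 for Hoxb9 to 0.93 for Hoxb4 among the 7 called genes. Hoxb9 was nonetheless abundant in both depots, at 40.2 RPKM ± 0.762 in white and 49.7 RPKM ± 1.59 in brown. The posterior Hoxd genes from Hoxd10 to Hoxd13 stayed under 0.1 RPKM in all 8 libraries. Hoxd3 and Hoxd4 share 61.1% and 49.1% of their 31-base words with each other or another gene model and were not called, although Hoxd3 was called under 4 alternatives (0.37 to 0.47, adjusted p = 0.0333 to 0.0426).

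**Figure D1:**
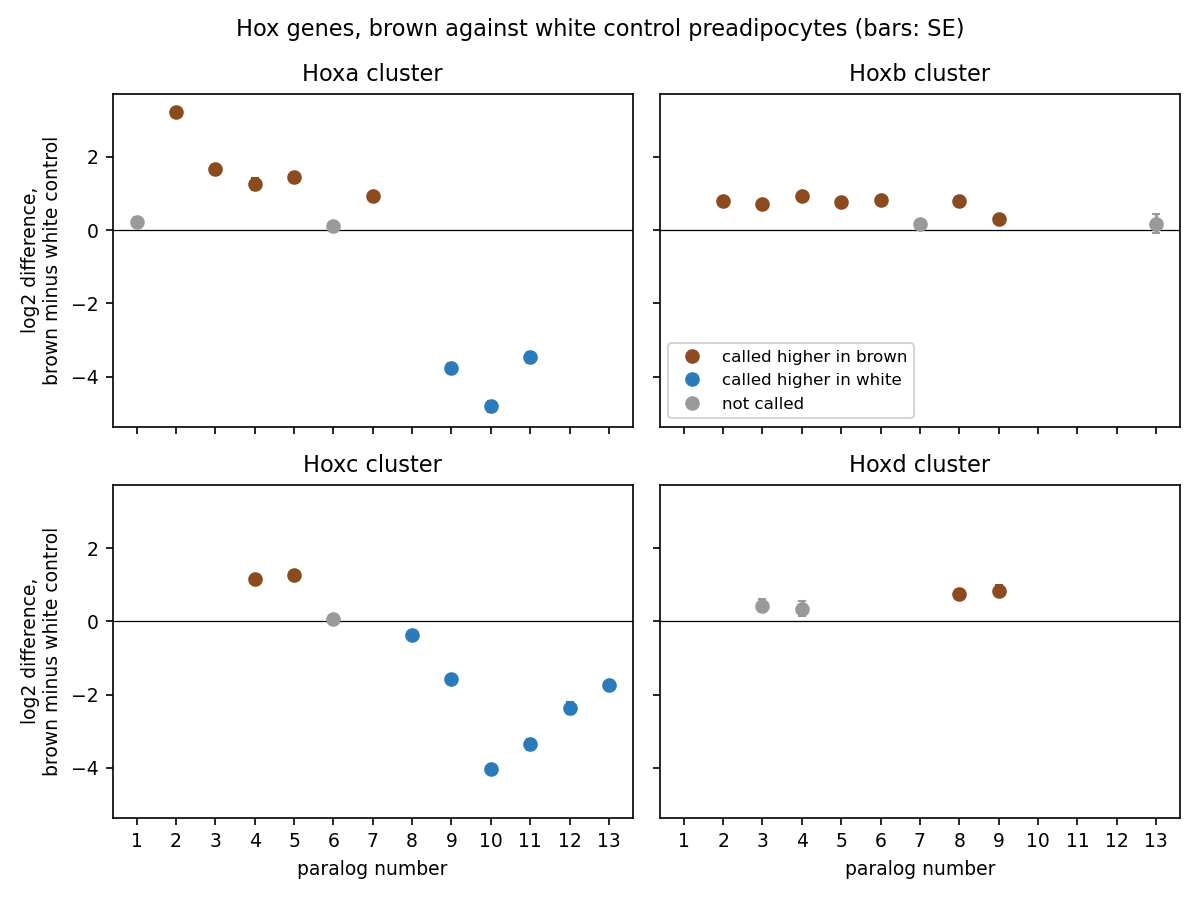
Log2 difference between brown and white control preadipocytes for each of the 32 Hox genes tested, by cluster and paralog number, with SE bars. Brown points are called higher in brown, blue points higher in white and grey points not called. In Hoxa and Hoxc the sign changes along the cluster, from 3.22 at Hoxa2 to -4.81 at Hoxa10 and from 1.15 at Hoxc4 to -4.03 at Hoxc10.

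More transcription factors of the dermomyotome and the brown lineage were higher in brown than in white preadipocytes. Of 22 genes in this list, 19 were tested, with 10 higher in brown and 3 higher in white (median 0.35, all genes 18.1% and 15.9%). Zic1, a zinc finger factor of the dorsal somite and a marker of classical brown fat, measured 0.210, 0.121, 0.225 and 0.148 RPKM in white and 13.1, 13.3, 12.5 and 12.3 RPKM in brown libraries. That corresponds to 8 to 14 reads per white and 601 to 702 reads per brown library, with no overlap. The difference of 5.72 (SE 0.18, adjusted p = 3.48e-14) was the largest of all called genes with at least 5 RPKM in the higher group. Its neighbour in the genome, Zic4, measured 0, 0.0124, 0.0132 and 0 RPKM in white and 0.356, 0.418, 0.552 and 0.350 RPKM in brown libraries.

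Six2, a homeobox factor of mesenchymal precursors, measured 0.0910, 0.0480, 0.0768 and 0.105 RPKM in white and 2.80, 2.70, 2.83 and 2.51 RPKM in brown controls, a difference of 3.36 (SE 0.11). Lhx8, a LIM homeobox factor used as a brown fat marker, measured 3.52, 3.94, 3.63 and 3.04 RPKM in white and 7.29, 7.56, 7.01 and 7.65 RPKM in brown libraries (1.04, SE 0.085). Ebf2, which marks brown and beige precursors, measured 8.25, 7.74, 7.88 and 7.77 RPKM in white and 10.9, 11.6, 11.8 and 12.3 RPKM in brown libraries (0.56, SE 0.049). None of these 3 genes overlapped between depots, as at the 28.2% of genes tested that were called without overlap. Their sizes ran from 1.47-fold for Ebf2 to 10.3-fold for Six2. Meox2, a somite factor (0.87, SE 0.048), and Pax3, an early dermomyotome factor (0.57, SE 0.077), were also higher in brown. The developmental co-activators Eya2 (1.503, SE 0.29) and Eya1 (1.24, SE 0.21) were higher in brown on few reads, with 9 to 18 and 6 to 14 reads per brown library against 1 to 6 and 1 to 5 per white library. The dermomyotome and muscle precursor genes Myf5 and Pax7 were near or at 0: Myf5 reached at most 0.0307 RPKM and Pax7 was listed at 0 in all 8 libraries. Ehmt1, a histone methyltransferase partner of Prdm16, was slightly higher in white (-0.16, SE 0.031), as were Ebf1 (-0.14, SE 0.043) and Ebf3 (-0.16, SE 0.055). The call of Ebf1 was lost without brown library 13 or without white library 3, 5 or 7, with -0.12 to -0.13, and that of Ebf3 without brown library 11 or 13 or white library 1 or 7, with -0.12 to -0.16. Prdm16 itself, a co-regulator of the brown fat programme, measured 1.21, 1.23, 1.29 and 1.31 RPKM in white and 1.09, 1.19, 1.06 and 1.13 RPKM in brown libraries and was not called (-0.15, SE 0.072, adjusted p = 0.125).

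The 64 other positional transcription factors split evenly. Of these, 51 were tested, with 20 higher in brown and 21 higher in white (median -0.08, all genes 18.1% and 15.9%). Pitx1, a hind limb factor, measured 2.66, 2.75, 2.47 and 2.37 RPKM in white libraries and was listed at 0 in all 4 brown controls. Entries of genes that every cell uses, such as the ribosomal protein gene Rps29, were also listed at 0 in every brown library, so no fold is given for Pitx1. Foxd1, a forkhead factor of stromal cells, averaged 0.140 RPKM ± 0.0404 in white and 1.56 RPKM ± 0.200 in brown libraries (2.86, SE 0.19).

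White fat markers were mostly higher in white preadipocytes. Of 19 genes proposed as inguinal, beige or white markers, 15 were tested. Among them, 10 were higher in white and 1 higher in brown (median -0.38, all genes 15.9% and 18.1%). Tbx1, a T-box factor used as a beige marker, measured 1.48, 1.08, 1.03 and 0.870 RPKM in white and 0.0819, 0.0356, 0 and 0 RPKM in brown libraries (-1.91, SE 0.16). Shox2, a limb homeobox factor, measured 25.9, 27.4, 25.6 and 26.8 RPKM in white and 12, 12.3, 11.7 and 12.5 RPKM in brown libraries (-1.03, SE 0.053). Neither gene overlapped between depots, as at the 28.2% of genes tested that were called without overlap. Dpt (dermatopontin, a matrix protein of fibroblasts) averaged 57.4 RPKM ± 1.05 in white and 24.1 RPKM ± 2.48 in brown libraries. Tbx15, another subcutaneous depot factor, differed by only -0.17 (SE 0.037) with 48.0 ± 0.347 and 43.0 ± 0.551 RPKM.

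Genes of the thermogenic programme differed in both directions between the control cultures. Of 26 such genes, 18 were tested, with 4 higher in brown and 5 higher in white (median -0.01), together 9 of 18 where 33.9% of all genes were called. Ucp1, the uncoupling protein of brown fat, measured 2.41, 2.12, 2.63 and 2.08 RPKM in white and 2.35, 2.93, 1.91 and 2.46 RPKM in brown libraries. The groups overlapped, and the difference was 0.05 (SE 0.12, adjusted p = 0.787). Pparg, the master factor of fat cell differentiation, measured 4.63, 4.69, 4.76 and 4.87 RPKM in white and 5.39, 4.83, 4.64 and 4.68 RPKM in brown libraries (0.05, SE 0.092). Ppargc1a, the co-activator of mitochondrial and thermogenic genes, averaged 0.136 RPKM ± 0.0384 and 0.115 RPKM ± 0.0442, on 7 to 22 reads per library, which leaves its difference of -0.04 with an SE of 0.24. Gatm, an enzyme of creatine synthesis, was higher in brown (1.21, SE 0.18), while Fgf21, a secreted metabolic factor, was higher in white (-0.95, SE 0.22).

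Adipocyte differentiation genes went both ways, with 8 of 28 tested higher in brown and 6 higher in white (median 0.02, all genes 18.1% and 15.9%). Fabp4, a fatty acid carrier, averaged 10.3 RPKM ± 0.599 in white and 18.1 RPKM ± 1.22 in brown libraries (0.80, SE 0.086). Zfp423, a zinc finger factor of committed preadipocytes, measured 0.678, 0.732, 0.594 and 0.551 RPKM in white and 1.91, 1.65, 1.69 and 1.61 RPKM in brown libraries (1.53, SE 0.20). Lpl, the lipase that releases fatty acids from lipoproteins, ran the other way, with 170, 159, 167 and 156 RPKM in white and 62.2, 68.1, 64.9 and 74.2 RPKM in brown libraries (-1.30, SE 0.045). For these 3 genes the libraries of the depots did not overlap, as at the 28.2% of genes tested that were called without overlap.

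**Figure D2:**
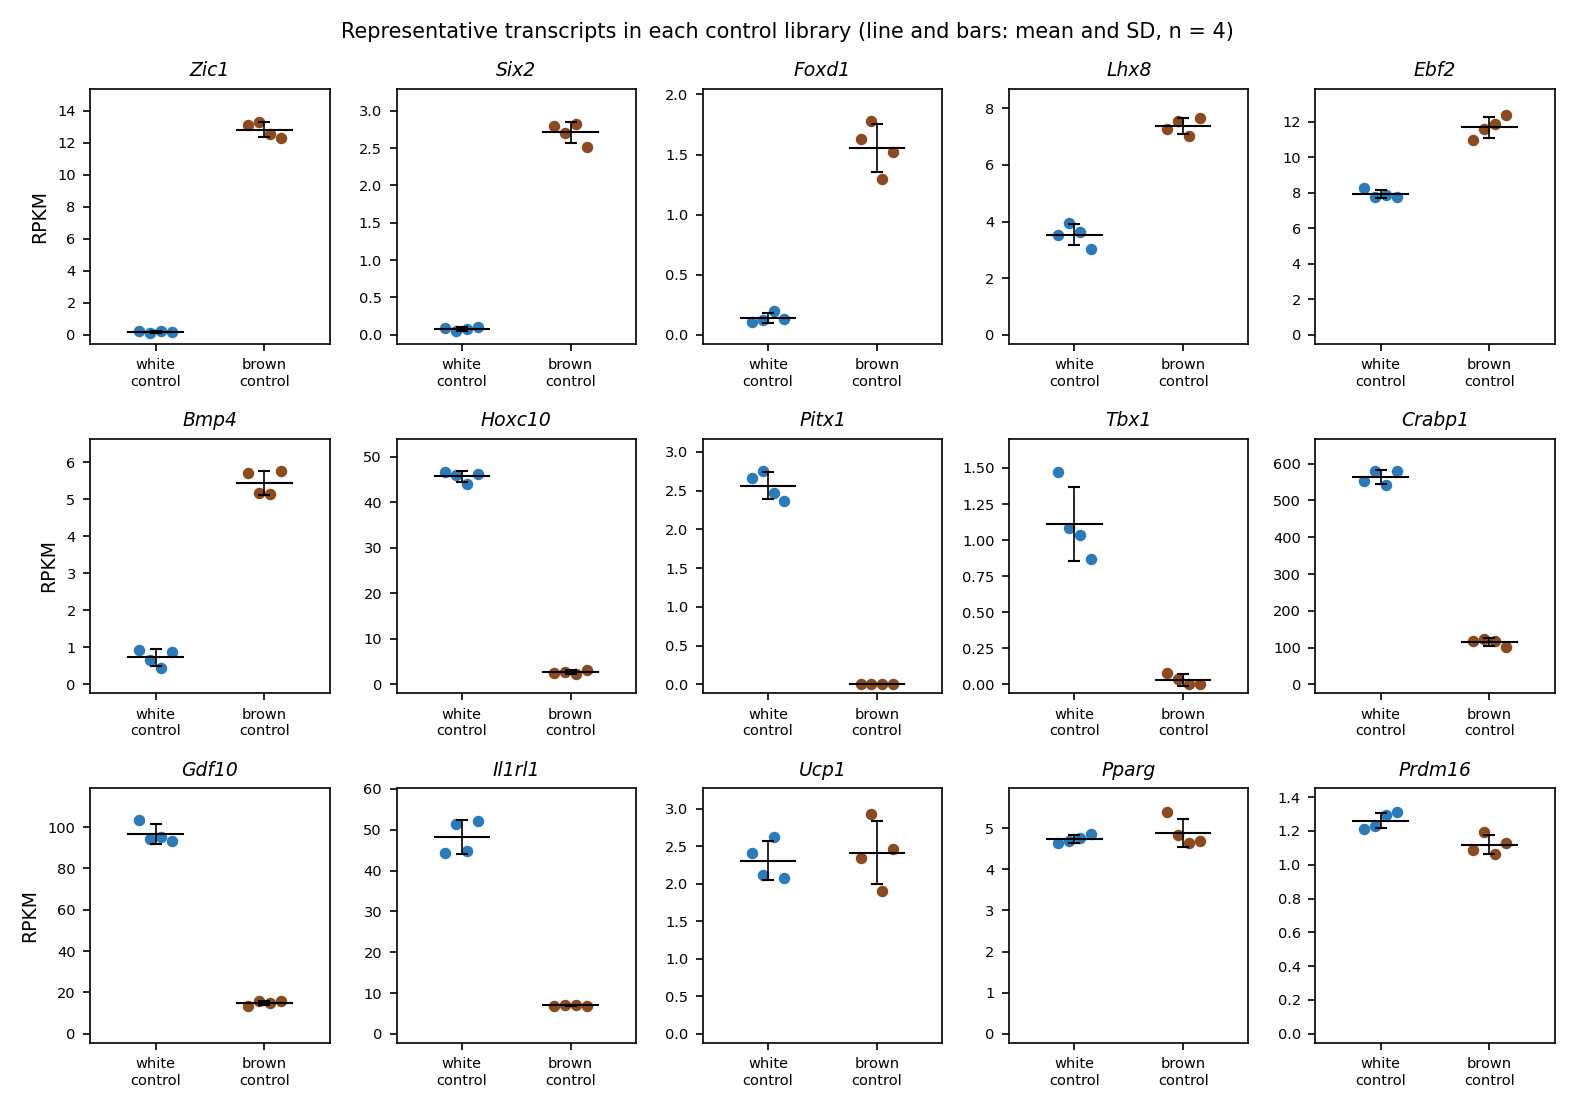
RPKM of a representative transcript in each of the 8 control libraries for 15 genes, with the mean and SD of 4 libraries per depot and a linear axis that includes 0 in each panel. Zic1, Six2, Foxd1, Lhx8, Ebf2 and Bmp4 are higher in brown, Hoxc10, Tbx1, Crabp1, Gdf10 and Il1rl1 are higher in white, Pitx1 is listed at 0 in brown, and Ucp1, Pparg and Prdm16 are not called.

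Secreted growth factors and their antagonists were among the genes that differed most. Of 44 BMP and TGF-beta genes, 40 were tested, 21 higher in brown and 9 higher in white (median 0.17, all genes 18.1% and 15.9%). Bmp4, a ligand that commits precursors to the fat lineage, measured 0.930, 0.659, 0.433 and 0.886 RPKM in white and 5.69, 5.18, 5.13 and 5.75 RPKM in brown libraries (2.83, SE 0.24). Gdf10, a TGF-beta family ligand also called BMP3B, measured 104, 94.1, 95.4 and 93.0 RPKM in white and 13.7, 16, 14.7 and 15.7 RPKM in brown libraries (-2.66, SE 0.068). Both were called and separated the depots without overlap, as at 28.2% of genes tested, and in opposite directions. Of 36 WNT genes tested, 17 were higher in brown and 7 higher in white (median 0.38). Frzb, a secreted frizzled-related antagonist, averaged 1.42 RPKM ± 0.0877 in white and 8.53 RPKM ± 0.0852 in brown libraries (2.48, SE 0.11). Dkk2, a secreted ligand of the WNT co-receptor, averaged 17.8 RPKM ± 0.148 in white and 5.60 RPKM ± 0.524 in brown libraries (-1.65, SE 0.048). Axin2, a target and feedback inhibitor of WNT signalling, was higher in white at a low level (0.528 RPKM ± 0.0520 against 0.137 RPKM ± 0.0140; -1.67, SE 0.14).

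Axon guidance and Notch genes code for contact-dependent and repulsive signals between cells. Of 41 tested members, 24 were higher in brown and 9 higher in white (median 0.44, all genes 18.1% and 15.9%). Jag1, a Notch ligand, measured 3.89, 4.33, 4.34 and 4.25 RPKM in white and 13.5, 13.2, 13.6 and 13.6 RPKM in brown libraries (1.70, SE 0.086). Heyl, a transcriptional repressor induced by Notch, had 1 to 4 reads per white and 45 to 64 per brown library, at 0.0306 RPKM ± 0.0152 and 0.746 RPKM ± 0.103. Sema3d, a secreted semaphorin, averaged 4.09 RPKM ± 0.129 and 12.3 RPKM ± 1.70 (1.53, SE 0.091).

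Growth control genes of the imprinted network were mostly higher in white preadipocytes. Of 24 tested genes of the IGF axis and the imprinted network, 15 were higher in white and 6 higher in brown (median -0.26). The shares over all genes were 15.9% and 18.1%. Cdkn1c, an imprinted inhibitor of the cell cycle, measured 35.0, 31.7, 34.7 and 28.9 RPKM in white and 3.55, 4.26, 3.36 and 3.70 RPKM in brown libraries (-3.06, SE 0.12). Dlk1, an imprinted surface protein of preadipocytes that restrains fat cell formation, measured 45.3, 41.7, 46.8 and 38.4 RPKM in white and 13.8, 15.1, 13.7 and 11.8 RPKM in brown libraries (-1.67, SE 0.063). The white libraries were the high ones at both genes, without overlap (28.2% of genes tested were called without overlap). Igfbp3, a carrier of insulin-like growth factors, averaged 130 RPKM ± 2.27 and 55.0 RPKM ± 3.72 (-1.25, SE 0.061). Proliferation genes had 10 of 39 tested members higher in brown and 6 higher in white (median 0.04, all genes 18.1% and 15.9%).

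Further white-enriched genes of high level code for binding and signalling proteins. Crabp1, which binds retinoic acid in the cytoplasm, measured 553, 581, 541 and 580 RPKM in white and 118, 124, 118 and 101 RPKM in brown libraries (-2.29, SE 0.052). Retinoid genes as a list went both ways, 6 of 16 tested higher in brown and 7 higher in white (all genes 18.1% and 15.9%). The synthesis enzyme Aldh1a2 was higher in brown (25.4 RPKM ± 2.33 against 11.3 RPKM ± 0.769 in white, difference 1.15, SE 0.080). Il1rl1, the receptor of interleukin 33, measured 44.3, 51.5, 44.8 and 52.2 RPKM in white and 6.91, 6.94, 7.10 and 6.91 RPKM in brown libraries (-2.70, SE 0.062). Ace, the angiotensin-converting enzyme, measured 20.2, 16.2, 16.8 and 15.9 RPKM in white and 2.05, 2.26, 2.08 and 2.15 RPKM in brown libraries (-3.01, SE 0.088). At Crabp1, Il1rl1 and Ace every white library exceeded every brown one (28.2% of genes tested were called without overlap, either way). Ccl8, a chemokine that attracts monocytes, averaged 20.5 RPKM ± 1.82 in white and 4.16 RPKM ± 0.803 in brown libraries (-2.25, SE 0.15). Chemokines and inflammatory genes as a list had 10 of 26 tested members higher in brown and 9 higher in white (all genes 18.1% and 15.9%).

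Matrix genes did not move as a block. Collagen and basement membrane genes had 9 of 31 tested members higher in brown and 11 higher in white (median 0.05). Proteoglycans, elastic fibre and matricellular genes had 12 and 19 of 44 (median -0.04). The shares over all genes were 18.1% and 15.9%. Nov (Ccn3), a matricellular protein of high level, measured 89.3, 85.1, 88.6 and 88.2 RPKM in white and 372, 385, 372 and 378 RPKM in brown libraries (2.09, SE 0.039). Col8a1, a short-chain collagen, averaged 26.2 RPKM ± 1.04 in white and 92.0 RPKM ± 2.13 in brown libraries (1.80, SE 0.042). In white, Fbln1, an elastic fibre protein, was higher (69.1 RPKM ± 1.5 against 28.0 RPKM ± 1.81; -1.31, SE 0.049), and so was Spp1, the matrix protein osteopontin (88.8 RPKM ± 4.76 against 36.2 RPKM ± 3.15; -1.31, SE 0.046). Mmp3, a matrix protease, averaged 18.7 RPKM ± 1.31 in white and 2.20 RPKM ± 0.414 in brown libraries (-2.96, SE 0.094), and 14 of 35 tested proteases and inhibitors were higher in white against 9 higher in brown (median -0.14). Smooth muscle and contractile genes, by contrast, had 11 of 18 members higher in brown and 2 higher in white (median 0.46). Actg2, smooth muscle gamma actin, averaged 30.1 RPKM ± 3.19 and 68.0 RPKM ± 3.47 (1.18, SE 0.078).

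Interferon response genes were higher in white control preadipocytes almost throughout. All 36 genes of this list passed the filter. Among them, 31 were higher in white and 1, Ifi27, higher in brown (all genes 15.9% and 18.1%). Their median was -0.57 against 0.00 over all genes. Interferons induce many of these antiviral genes through the interferon stimulated response element in their promoters. Mx1, an antiviral GTPase, measured 6.40, 6.45, 4.40 and 4.46 RPKM in white and 1.27, 0.892, 1.23 and 0.90 RPKM in brown libraries (-2.20, SE 0.20, adjusted p = 9.33e-08). Cxcl10, an interferon-induced chemokine, measured 32.9, 29.6, 22.1 and 28.1 RPKM in white and 10.4, 12.3, 9.80 and 11 RPKM in brown libraries (-1.28, SE 0.15). Rsad2 (viperin, an antiviral enzyme) measured 18.9, 18.4, 14.2 and 14.5 RPKM in white and 7.29, 7.45, 6.41 and 6.60 RPKM in brown libraries (-1.25, SE 0.14). White libraries 1 and 3 were above white libraries 5 and 7 at Mx1 and Rsad2. The depots did not overlap at any of the 3 genes, as at the 28.2% of genes tested that were called without overlap. Ifit1, which binds foreign RNA, was far more abundant, at 188 RPKM ± 15.9 in white and 121 RPKM ± 5.93 in brown libraries, and differed less (-0.64, SE 0.11). The ubiquitin-like modifier Isg15 averaged 713 RPKM ± 62.2 and 560 RPKM ± 63.2 (-0.35, SE 0.12), and its call was lost without brown library 15 (-0.26) and without white library 1, 3 or 5 (-0.34, -0.30 and -0.36).

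Promoter sequences were searched for the response element. In RefSeq promoter windows of 300 bases on GRCm38.p6, from 250 before to 50 after the transcription start, the core of the interferon stimulated response element, GAAANNGAAA on either strand, was looked for. The core was present for 15 of the 24 interferon response genes with a window in any of their windows, and for 13 of the 21 of them that were higher in white, so that 9 of the 24 did not hold it. Of 10590 tested genes with a window, 391 held it (3.69%), as did 3.44% of all 32851 windows. A match describes these letters and is not shown to be bound. The 3 windows with the core in capitals (on the opposite strand it reads TTTCNNTTTC) given 5′ to 3′ on the strand of the gene are those of Cxcl10 (chr5:92348840-92349139, minus strand), Rsad2 (chr12:26456403-26456702, minus strand) and Ifit1 (chr19:34640639-34640938, plus strand), with 1, 1 and 2 matches.
Cxcl10: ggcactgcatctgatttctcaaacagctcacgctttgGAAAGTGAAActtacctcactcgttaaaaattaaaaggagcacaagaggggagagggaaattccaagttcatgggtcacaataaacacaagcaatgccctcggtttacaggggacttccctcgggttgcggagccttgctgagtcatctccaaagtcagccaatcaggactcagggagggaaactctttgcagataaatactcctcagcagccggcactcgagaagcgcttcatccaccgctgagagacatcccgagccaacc
Rsad2: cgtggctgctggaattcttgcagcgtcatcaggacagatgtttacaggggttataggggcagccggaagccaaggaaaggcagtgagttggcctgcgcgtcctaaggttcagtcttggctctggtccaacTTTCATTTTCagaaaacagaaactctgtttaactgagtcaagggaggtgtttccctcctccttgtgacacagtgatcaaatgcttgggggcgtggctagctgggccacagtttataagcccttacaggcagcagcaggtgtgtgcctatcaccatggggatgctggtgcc
Ifit1: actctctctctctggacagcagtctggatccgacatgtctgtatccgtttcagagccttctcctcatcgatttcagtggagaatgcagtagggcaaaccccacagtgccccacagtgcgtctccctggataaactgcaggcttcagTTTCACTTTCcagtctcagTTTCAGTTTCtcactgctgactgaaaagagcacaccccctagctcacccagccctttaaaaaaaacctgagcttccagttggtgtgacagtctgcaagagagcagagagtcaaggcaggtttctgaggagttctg
In Cxcl10 the core begins 213 bases before the start, in Rsad2 120 bases before it, and in Ifit1 104 and 85 bases before it.

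FGF signalling genes differed between depots without added Fgf8b. Of 26 targets of FGF and ERK signalling, 18 were higher in white and 2 higher in brown (median -0.43, all genes 15.9% and 18.1%). Spry2, a feedback inhibitor of receptor tyrosine kinases, measured 40.5, 41.9, 42.8 and 42.1 RPKM in white and 18.3, 19.1, 19.5 and 18.8 RPKM in brown libraries (-1.10, SE 0.047). Egr2, an immediate early transcription factor, measured 10.4, 9.45, 9.52 and 8.93 RPKM in white and 4.88, 5.19, 5.12 and 4.70 RPKM in brown libraries (-0.97, SE 0.054). Both genes had every white library above every brown one (28.2% of genes tested were called without overlap, either way). Hmga1, a chromatin protein of growing cells, differed by -1.19 (SE 0.066) but shares 62.1% of its 31-base words with Hmga1b, so its value is uncertain. The receptor Fgfr1 measured 73.7, 75.3, 75.7 and 74.1 RPKM in white and 59.8, 60.9, 59.7 and 56.3 RPKM in brown libraries (-0.34, SE 0.030). Ligands went both ways. Fgf18 was higher in brown (6.05 RPKM ± 0.720 against 2.34 RPKM ± 0.351 in white, difference 1.33, SE 0.14). Fgf10, a mesenchymal ligand that promotes fat cell formation, was higher in white (7.70 RPKM ± 0.428 against 3.92 RPKM ± 0.596 in brown, difference -0.98, SE 0.082).

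Metabolic genes differed by small amounts in opposite directions. Glycolysis and hypoxia genes had 18 of 32 members higher in white and 3 higher in brown (median -0.21), led by the lactate exporter Slc16a3 (27.7 RPKM ± 1.89 against 14.1 RPKM ± 0.951; -0.97, SE 0.055), the aldolase Aldoc (5.14 RPKM ± 0.490 against 2.65 RPKM ± 0.485; -0.92, SE 0.11) and the pyruvate dehydrogenase kinase Pdk1 (9.65 RPKM ± 0.367 against 5.35 RPKM ± 0.0963; -0.82, SE 0.038). Cholesterol synthesis genes had 13 of 24 members higher in brown and 2 higher in white (median 0.13, all genes 18.1% and 15.9%). Nuclear genes of the respiratory chain, by which brown fat burns fuel, had 4 of 40 members higher in brown and 5 higher in white (median 0.01). Both counts lie under the shares over all genes, 18.1% and 15.9%.

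**Figure D3:**
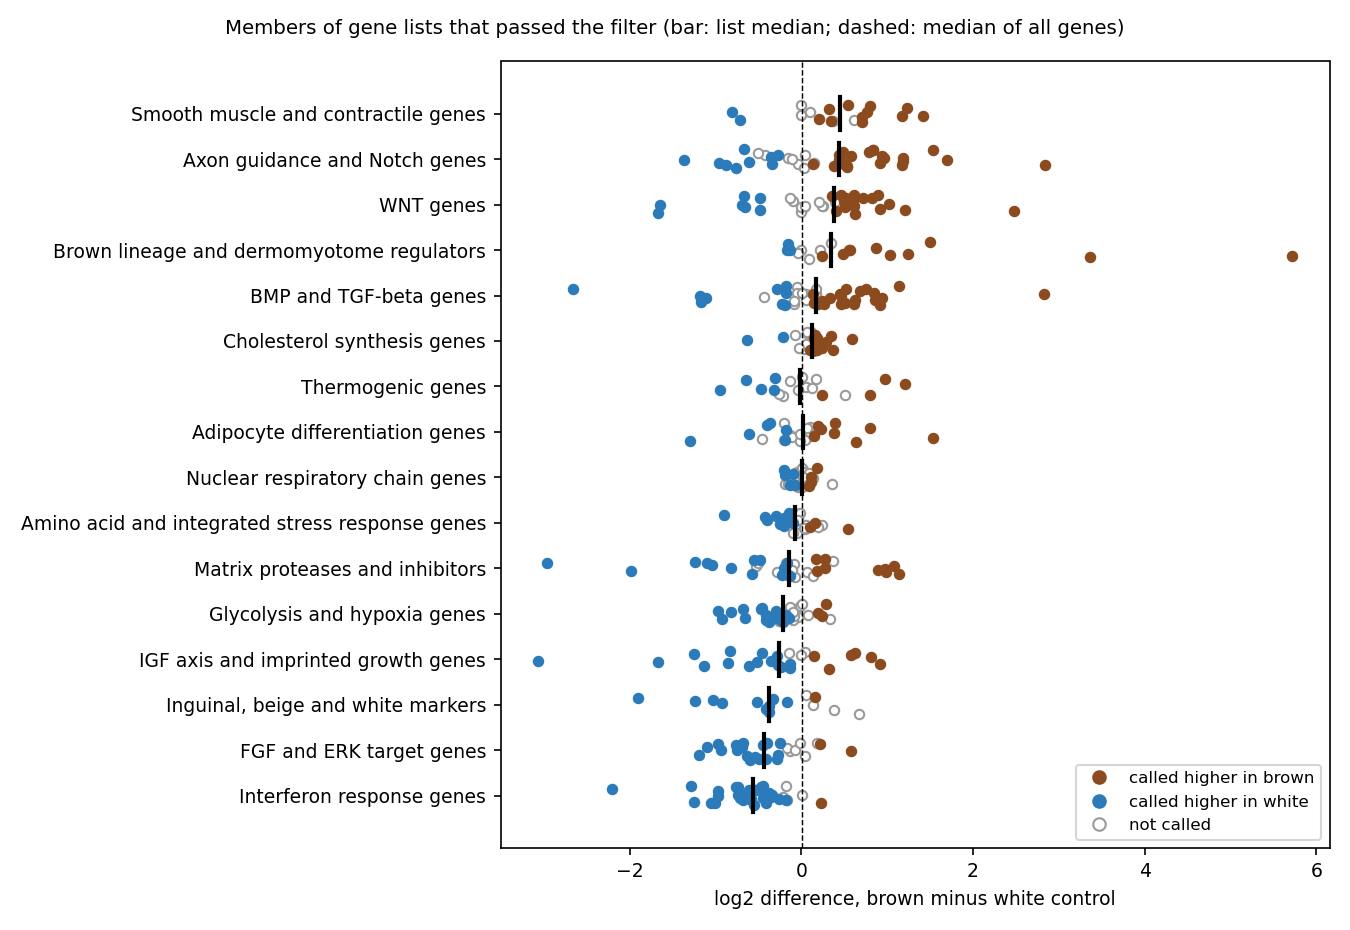
Log2 difference between brown and white control preadipocytes for each member of 16 gene lists that passed the filter. Filled points are called (brown, higher in brown; blue, higher in white), open points are not, black bars are list medians and the dashed line is the median of all genes. List medians run from -0.57 for interferon response genes to 0.46 for smooth muscle and contractile genes.

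Markers of other cell types were mostly low in both depots, except in the Schwann cell and pericyte lists. There 2 of 12 and 3 of 10 members stayed under 0.5 RPKM in all control libraries. Over all genes, 18.1% were higher in brown and 15.9% higher in white. The pan-leukocyte gene Ptprc and the T-cell gene Cd3e were listed at 0 in all 8 libraries, as were the muscle genes Myod1 and Myf6, and the summed level of 16 leukocyte markers was 5.54 to 6.35 RPKM in white and 6.61 to 9.20 RPKM in brown libraries. Of these 16, 5 were tested, with 4 higher in brown and 1 higher in white. Lyz2, a lysozyme of macrophages, averaged 1.22 RPKM ± 0.164 in white and 2.96 RPKM ± 0.819 in brown libraries (1.15, SE 0.27), a call lost with an offset of 0.1 (adjusted p = 0.084). Laptm5, a lysosomal protein of blood cells, had 0 to 1 reads per white and 1 to 7 per brown library (2.01, SE 0.48). The part of leukocytes in the differences between depots was not tested. Of 12 Schwann cell markers, 9 were tested, with 6 higher in brown and 1 higher in white, and their summed level was 161.8 to 167.7 RPKM in white and 171.9 to 183.1 RPKM in brown libraries. Sox10, the defining factor of Schwann cells, measured 0.0471, 0.0186, 0.0199 and 0.0203 RPKM in white and 1.53, 1.05, 1.27 and 1.08 RPKM in brown libraries, on 1 to 2 and 45 to 57 reads. Erbb3, a receptor of the same cells, averaged 0.0959 RPKM ± 0.0379 and 0.671 RPKM ± 0.0790 (1.42, SE 0.14). Both levels were small beside the list's sum, which thus rests mostly on other members. With transcripts summed, Sox10 and Erbb3 averaged 0.0752 and 0.21 RPKM in white controls, under the filter's 0.5 RPKM. Laptm5 (0.0959), Upk1b (0.425) and Pecam1 (0.0868) were under it too. A gene so low in white enters the test mainly when higher in brown, so the filter favours this direction in the marker counts. The part of Schwann cells in the axon guidance and Notch genes higher in brown was not tested. The endothelial gene Pecam1 had 0 to 2 reads per white and 6 to 10 per brown library, while endothelial Cdh5 was higher in white (1.13 RPKM ± 0.10 against 0.571 RPKM ± 0.174). Of 15 endothelial markers, 7 were tested, with 3 higher in brown and 4 higher in white, and their sum was 17.1 to 19.5 RPKM in white and 13.2 to 14.9 RPKM in brown libraries. Of 18 cartilage, bone and tendon markers, 13 were tested, with 5 higher in brown and 2 higher in white, 2 and 1 of them at least 2-fold. The list summed to 41.3 to 42.1 RPKM in white and 39.2 to 42.5 RPKM in brown libraries. Col2a1, a cartilage collagen, averaged 0.245 RPKM ± 0.0625 in white and 1.35 RPKM ± 0.129 in brown libraries (2.31, SE 0.15). Mcam, a pericyte adhesion molecule, averaged 7.69 RPKM ± 0.493 and 22.4 RPKM ± 1.99 (1.56, SE 0.067), and 10 pericyte markers summed to 59.3 to 61.5 and 56.6 to 69.5 RPKM, with 4 of 8 tested higher in each depot. The part of pericytes in the contractile genes higher in brown was not tested. Upk1b, a mesothelial gene, had 2 to 5 reads per white and 30 to 44 per brown library, and 1 of 5 mesothelial markers tested was higher in brown, the same Upk1b. Epithelial and skeletal muscle lists each had 1 of 6 tested members higher in brown and 0 higher in white, with sums of 12.9 to 14.6 against 13.2 to 15 RPKM and of 6.77 to 9.30 against 10.5 to 12.5 RPKM. Xist, expressed from an inactive X chromosome, stayed at or under 0.0210 RPKM and the Y-linked Ddx3y was at 12.6 to 19.8 RPKM in all 8 libraries.

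Part of the depot difference lay in runs of neighbouring genes. Among 13511 tested genes matched to RefSeq by symbol, 476 were called at least 2-fold, and 66 of these (13.9%) lay next to another called at least 2-fold in the same direction, in 27 runs in the gene order of GRCm38.p6. The longest run held the 6 genes from Hoxc13 to Hoxc9, Hotair included. The next held 5 serine protease inhibitor genes higher in brown, Serpinb1a, Serpinb6b, Serpinb9, Serpinb9b and Serpinb6c, whose products restrain proteases inside cells. Serpinb6b measured 1.44, 1.96, 1.92 and 1.84 RPKM in white and 15.4, 14.8, 15.4 and 15.1 RPKM in brown libraries (3.01, SE 0.11), and Serpinb9 averaged 11.3 RPKM ± 0.394 and 25.4 RPKM ± 0.860 (1.13, SE 0.068). Dcn, Lum and Kera, a cluster of small leucine-rich proteoglycans that organise collagen fibrils, formed a run higher in white, in which Lum averaged 14.4 RPKM ± 1.57 and 7.14 RPKM ± 1.57 (-1.04, SE 0.13). Pairs included Zic1 with Zic4, Rsad2 with its neighbour Cmpk2, and the neurofilament genes Nefl and Nefm, both higher in white. The genes of these runs were picked after their values were seen. The share of genes in runs that gene order alone would give was not computed.

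The depot difference was also measured in the treated libraries, which share no sample with the controls. They entered the same filter and the same fit. Whether they share cultures with the controls is not known, so they are not an independent repeat. With Fgf8b, 7858 genes were called between depots (51.6%). Of the 312 genes at least 2-fold higher in brown controls, 206 were called in the same direction with Fgf8b, 15 in the opposite direction and 91 not at all, and their median went from 1.27 to 0.73. Of the 199 genes at least 2-fold higher in white controls, the same counts were 142, 15 and 42, with medians of -1.27 and -0.78. These genes were chosen for their size in the controls, so a smaller median in other libraries is no finding by itself. The difference between the depot contrasts, tested as an interaction in the same fit, was called for 5313 genes (34.9%), with a size of at least 1 for 604 (3.97%), and was called for 171 and 119 of the 312 and 199 genes.

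Patterning genes differed between depots under both treatments, with 15 of 32 Hox genes higher in brown and 12 higher in white with Fgf8b. Over all 15222 genes tested, 4098 were higher in brown and 3760 higher in white with Fgf8b. Zic1 differed by 5.72 in controls and 5.82 with Fgf8b (interaction adjusted p = 0.799), Six2 by 3.36 and 3.17 (0.366), and Hoxc10 by -4.03 and -3.90 (0.447). The interaction was called for 12 of 32 Hox genes, 18 of 51 other positional factors and 6 of 19 brown lineage regulators, shares near the 34.9% of all genes. Hoxa2 went from 3.22 in controls to 1.80 with Fgf8b (interaction adjusted p = 3.86e-07), and Eya2 from 1.503 to 0.17, no longer called (interaction adjusted p = 0.0187). Interferon response genes changed sign: with Fgf8b 20 of 36 were higher in brown and 0 higher in white, their median was 0.30, and the interaction was called for 34. Rsad2 went from -1.25 to 0.72 and Cxcl10 from -1.28 to 0.50. Targets of FGF and ERK signalling also turned, from a median of -0.43 to 0.26 with 22 of 26 interactions called. Il1rl1 differed by -2.70 in controls and by 0.15 with Fgf8b, and Heyl and Serpinb6b, higher in brown controls, differed by 0.29 each with Fgf8b. The interaction was called for all 3 of these genes (adjusted p = 1.61e-13, 2.22e-07 and 5.88e-10).

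**Figure D4:**
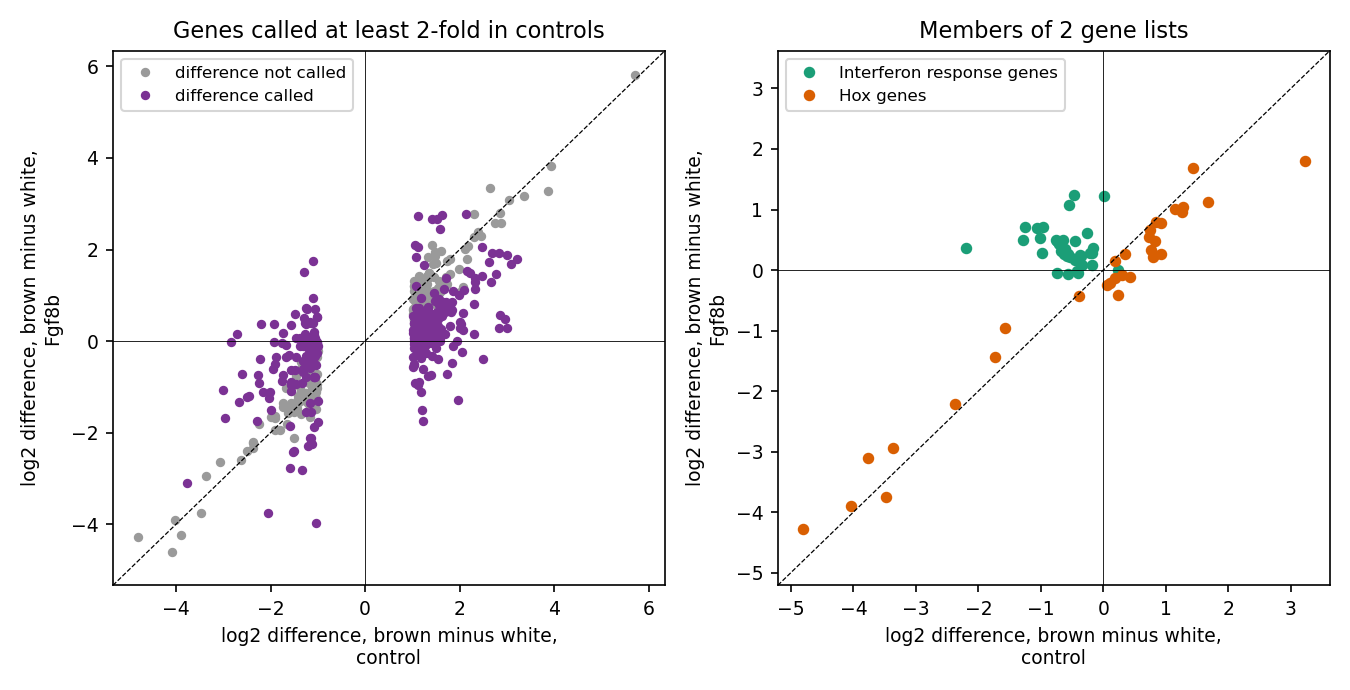
Log2 difference between brown and white preadipocytes with Fgf8b (vertical) against control (horizontal), on the left for the 511 genes called at least 2-fold in controls and on the right for tested interferon response and Hox genes. The dashed line marks equal differences. Of 32 Hox genes, 12 have a called departure from the line, such as Hoxa2 at 3.22 and 1.80, while most interferon response genes lie left of 0 in controls and above 0 with Fgf8b.

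**Figure D5:**
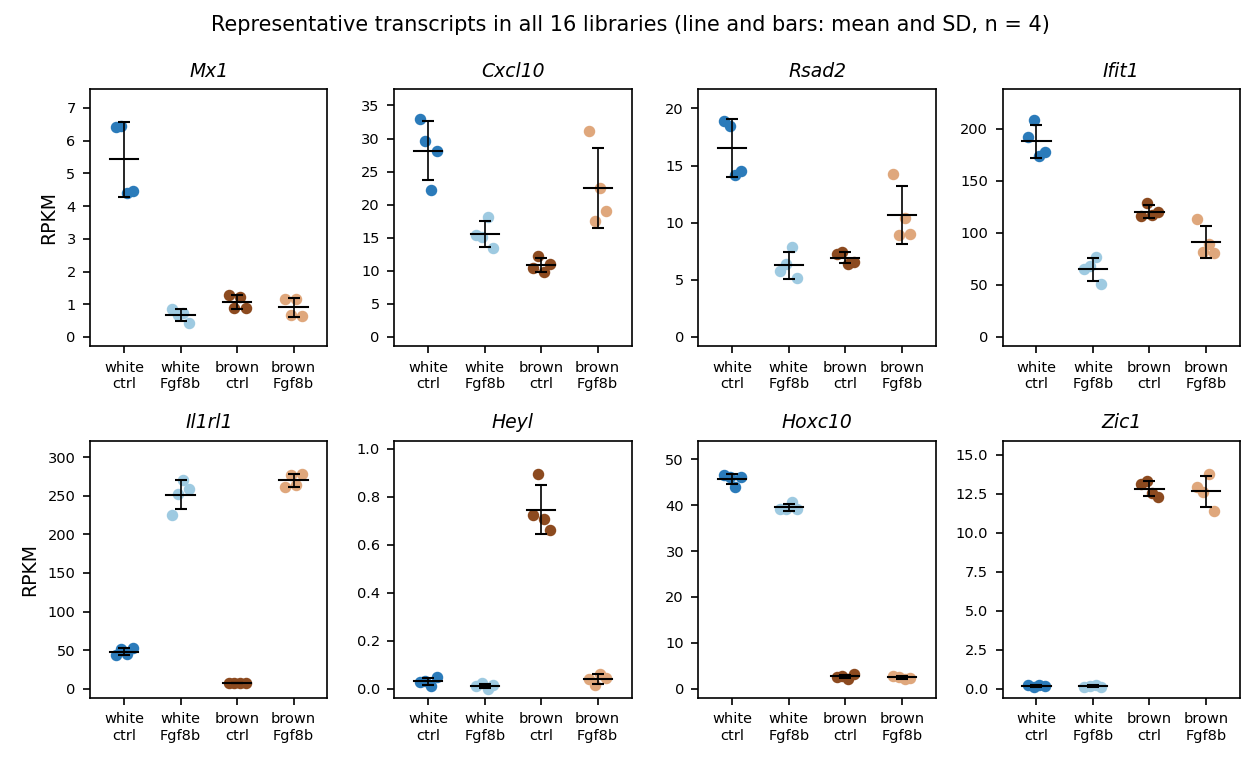
RPKM of a representative transcript in all 16 libraries for 8 genes, with the mean and SD of 4 libraries per group and a linear axis that includes 0. Hoxc10 and Zic1 separate the depots with and without Fgf8b. Mx1, Cxcl10, Rsad2 and Ifit1 have their highest mean in white controls, and the depots lie closer together with Fgf8b than in controls at Il1rl1 and Heyl.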

How the data were processed

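The authors deposited 1 table of 168326 transcript entries, written with decimal commas, whose values per library are RPKM (reads per kilobase and per M reads), so the unit recorded is other than counts. RPKM is taken from the working description of the table and from the values: per the deposited values, 95.6 to 96.1% of low values (up to 50 reads) come within 0.1 of a whole read once transcript length and depth are taken out. Total RNA was purified and libraries were made with the TruSeq kit v2, per the labels' protocols. CASAVA and bcl2fastq are named without versions in the submitters' processing notes. No source used here gives the aligner, genome build, annotation or strandedness.

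Entries without a gene symbol (23172, 13.8%) and all 808 entries of the 299 repeated accessions were left out, and the other 144549 were summed to 29060 genes, so reads that several transcripts share may count more than once. The filter kept genes that reached 0.5 RPKM in 4 or more of the 16 libraries. Genes near 0 in 1 depot could pass it through the other alone, which favours a call in that direction. A linear model of 4 group means on log2(RPKM + 0.5) was fitted to all 16 libraries with limma 3.58.1 (R 4.3.3; settings trend and robust), and p-values were adjusted over all 15222 genes by the Benjamini-Hochberg method. The interaction is the depot difference with Fgf8b minus that in controls. The fit was tested on simulated data. Python 3.11.15 with numpy 2.4.6, pandas 2.3.3 and matplotlib 3.10.9 did the rest. Transcript lengths, GC content and shared 31-base words came from GENCODE M21, and gene order and promoters from RefSeq on GRCm38.p6. Intervals from read counts would cover counting error only.

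The 36 gene lists (994 entries, 993 in the table, 3 by a synonym) and the members were chosen with earlier results of these data known, so counts over lists are descriptions. Named genes were 10 fixed genes, Hox genes and brown lineage regulators, the 3 called members of each other list with the largest difference and at least 1 RPKM, and the largest differences each way with at least 5 RPKM (10 genes) and 100 RPKM (5 genes). A few were chosen after their values were seen, namely Pdgfra, Ly6a, Thy1, Adipoq, Plin1, Lep, Hotair, Isg15, Ifit1, Ifi27, Serpinb9, Serpinb6c, Lum, Kera, Nefl, Nefm, Xist and Ddx3y, and other members of the runs of neighbours. Alternatives changed the offset, the filter, the scaling, the libraries fitted, the weights, the moderation and the transcripts used, and left out each control library in turn. Since the table holds no counts, a count test was run only as an alternative, chosen after seeing the data, as voom on read-back reads. Some genes that the naming rule picks are not reported here.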

Additional observations from a re-analysis of the deposited data

Results flagged for a closer look

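The depot difference with Fgf8b minus that in controls was called (limma, Benjamini-Hochberg adjusted p under 0.05) and at least 1 in size on the log2 scale for 30 of the 107 genes named and tested; over all genes that share was 3.97%. Many of these genes were named for a large difference in controls, which favours a change away from it, so the 2 shares are not a comparison. It was positive for Il1rl1 (2.85), Mx1 (2.57), Rsad2 (1.96), Ace (1.94), Egr2 (1.82), Cxcl10 (1.78), Igfbp3 (1.62) and Axin2 (1.60). The same sign was found for Nefm (1.42), Nefl (1.39), Gdf10 (1.33), Dlk1 (1.33), Fgf10 (1.29), Mmp3 (1.28), Lpl (1.23), Hmga1 (1.23), Sema3d (1.15), Ifit1 (1.14) and Ppargc1a (1.10). It was negative for Lum (-2.92), Serpinb6b (-2.72), Heyl (-2.55), Hoxa2 (-1.42), Eya2 (-1.33), Fgf21 (-1.23), Aldoc (-1.18), Serpinb9 (-1.13), Aldh1a2 (-1.11), Col8a1 (-1.04) and Mcam (-1.03). Lum, Fgf21 and Aldoc, higher in white controls, Sema3d, higher in brown controls, and Ppargc1a, not called in controls, thus differed more between depots with Fgf8b, and the other genes named here less.

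Single libraries stood far from the other 3 of their group in 22 of 224 groups of 4 values that were not all equal. In 6 of the 22 the other 3 libraries were at 0, which is flagged by construction. The remaining 16 are from 218 groups, where chance flags about 1 in 20. Of the 22, 6 concern brown control 15, whose deviation runs with GC content. They are Isg15 at 466 RPKM (others 585 to 598), Col8a1 at 95.1 (90.7 to 91.1), Ddx3y at 19.8 (13.8 to 14.4), Sema3d at 14.9 (11.4 to 11.7), Hoxa5 at 8.63 (9.32 to 9.45) and Plin1 at 0.0335 (all 0). In other brown libraries they are Ebf1 at 30.6 RPKM, Serpinb6c at 4.63 in library 11, Hoxb4 at 6.44 and Hoxa11os at 0.0792 in library 9, and Il1rl1 at 7.10, Frzb at 8.66 and Myf5 at 0.0301 in library 13. In white libraries they are Hoxa10 at 15.5 RPKM, Hoxc5 at 2.28, Adipoq at 0.0896, Laptm5 at 0.0230 and Hoxd13 at 0.0222 in library 7, Dkk2 at 18.0 in library 3, Sox10 at 0.0471 and Myf5 at 0.0307 in library 1, and Xist at 0.00903 in library 5. Those under 0.1 RPKM rest on a few reads.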

How the results depend on the processing

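Of 21 alternatives, 20 were planned and voom on read-back reads was chosen after seeing the data. No paired analysis was run, since no library number is shared between groups and no label states a pairing. Whether libraries were paired is therefore unknown, and the fit treated all 16 as independent. The count of genes called (5167) fell to 3006 with voom on read-back reads, where 8396 genes could be tested, with 312 called at least 2-fold (511 in the report), 2415 called without overlap (4291) and 2911 called for the interaction (5313). With RefSeq transcripts alone, 267 genes were called at least 2-fold, of 13047 tested. Of the 511 genes, 392 were tested there and 391 called in the same direction, at any size. Leaving out 1 control library at a time gave 4488 to 5299 called genes, 504 to 532 called at least 2-fold, 4134 to 4931 called without overlap and 4852 to 5894 called for the interaction. Without brown control 15, 4596 of the 5167 genes were called in the same direction. With trimmed-mean factors 48.5% of calls were higher in brown, against 53.2% in the report. Of the 2192 pairs of a named gene and an alternative, 2165 gave the same direction and side of the threshold. Signs turned only at values near 0 of genes not called. Leaving out 1 library gave -0.044 to 0.15 for Ucp1 (lowest without brown control 11), -0.0014 to 0.068 for Pparg (lowest without brown control 9) and -0.22 to 0.11 for Ppargc1a, whose sign turned without brown control 13 (0.11), brown control 15 (0.04) or white control 3 (0.10). Calls were lost in 18 pairs, of Ebf1, Ebf3, Isg15 and Lyz2, and the call of Hoxd3 was gained in 4 pairs, with differences of 0.37 to 0.47 (the 8 control libraries alone, array weights, no trend, offset of 1). Low genes are limited by depth: at the 8 control libraries' depths, a count of 0 for Sox10 would allow up to 0.0805 RPKM in a brown library (3 counts).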
